A study of Mus musculus with 6 samples.

Results

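The genes described here are 6 transcripts that mark lipid-handling and tissue-repair states of macrophages: Trem2, Spp1, Tgm2, Vegfa, Mmp12 and Cd36. They were chosen by symbol, as 6 of the 5299 genes held in any of the 3 expression matrices of the series, and the matrices of both lesion stages hold all 6. The matrix of tumour-free tissue holds 5 of them, and Mmp12 was not analysed there. The deposited values are scaled scores per cell, from which counts of unique molecular identifiers (UMIs, each standing for 1 captured mRNA molecule) were rebuilt, and a level is given as UMIs per 1000000 UMIs of the cells counted (CPM).

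The cells were CD45+ immune cells sorted from pieces of liver of Balb/c mice after intracardiac injection of the mouse mammary tumour line 4T07. The tumour cells were either control cells (Ctrl) or carried a short hairpin RNA against Tim3 (Tim3-KD), so that the knockdown was in the injected line and not in the sorted cells. From each kind of mouse there were 3 single-cell libraries, of tumour-free tissue beside lesions (AT) and of micrometastases, both at day 3, and of macrometastases at day 12. Each of the 6 libraries pooled 2 mice, and no group had a second library, so that intervals here are 95% exact intervals for counting error alone and no difference between groups carries a test.

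TREM2 is a lipid-sensing receptor of macrophages that signals through the adaptor DAP12, and it marks lipid-associated macrophages in fat, atherosclerotic plaque and tumours. SPP1 (osteopontin) is a secreted matrix protein that binds integrins and CD44, and SPP1-rich macrophages have been described in many solid tumours and in fibrotic tissue. TGM2 (transglutaminase 2) crosslinks proteins of the matrix and is a marker of alternatively activated macrophages, VEGFA is the main growth factor for new vessels, MMP12 is the macrophage elastase, and CD36 takes up fatty acids and oxidised lipoproteins. In the liver CD36 is also carried by sinusoidal endothelium, and the resident macrophages are the Kupffer cells, which differ in origin from macrophages that arise from blood monocytes.

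On GRCm38 (GENCODE vM21) the genes lie on 4 chromosomes. Trem2 is at chr17:48346401-48354147 on the plus strand and Vegfa at chr17:46016993-46032369 on the minus strand. Spp1 is at chr5:104435118-104441050, plus strand, and Cd36 at chr5:17781690-17888801, minus strand. Tgm2 is at chr2:158116402-158146436, minus strand, and Mmp12 at chr9:7344381-7369499, plus strand. The upstream sequences of Trem2 and Spp1 are shown because these genes define the macrophage state yet followed different cells below. Each run is the 250 bases 5′ of a RefSeq start site on GRCm38.p6, plus strand, and neither overlaps an annotated exon. Capitals mark the only match to the motifs searched on both strands, which is AP-1 (TGANTCA) for Trem2 and PU.1 (GAGGAAGT) for Spp1.
Trem2, chr17:48346151-48346400: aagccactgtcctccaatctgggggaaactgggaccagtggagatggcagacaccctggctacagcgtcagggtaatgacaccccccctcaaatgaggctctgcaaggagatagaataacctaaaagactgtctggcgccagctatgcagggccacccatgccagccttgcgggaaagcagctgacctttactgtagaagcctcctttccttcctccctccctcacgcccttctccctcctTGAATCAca
Spp1, chr5:104434861-104435110: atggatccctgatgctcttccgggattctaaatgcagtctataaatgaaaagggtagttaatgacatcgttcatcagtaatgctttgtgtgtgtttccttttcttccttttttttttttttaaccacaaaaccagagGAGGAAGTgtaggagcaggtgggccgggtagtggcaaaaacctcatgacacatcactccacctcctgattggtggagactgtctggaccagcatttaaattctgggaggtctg

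Of 32851 RefSeq promoter windows of the same length, 6.75% held the AP-1 letters and 2.44% those of PU.1. The core of the hypoxia response element (ACGTG, which also lies inside the E-box CACGTG) was in 16.6% of windows and the E-box in 6.02%, and neither was in the windows printed. Windows were found for 5 of the 6 genes. Such a match is a run of letters and not a measured binding site.

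The 6 libraries held 23008 cells, with 7086531 to 79971793 UMIs per library and a median of 6300 to 10248 UMIs per cell, and 59 cell barcodes occurred in more than 1 library. Cells were clustered without the 6 genes, and the 26 clusters were put into 13 classes by marker genes. The class names are rebuilt from markers and are not the study's annotation. The AT libraries stood apart. The AT Tim3-KD library had 542 cells, against 1803 in AT Ctrl, and Kupffer-like cells made up 19.6% of it, against 1.72%. Its summed level of the 15 Kupffer markers was 8190 CPM against 687 CPM, and its level of the 11 neutrophil precursor markers was 27.5 CPM against 8037 CPM, with 5 of them (Elane, Fcnb, Ltf, Ly6g and Ms4a3) at 0. Neutrophil precursor-like cells made up 17.0% of the micrometastasis cells in Ctrl, against 40.3% in Tim3-KD. Havcr2, the gene of TIM3, was at 4.67 and 5.36 CPM in AT Ctrl and Tim3-KD, 15.6 and 4.14 CPM in micrometastases, and 12.7 and 8.42 CPM in macrometastases. These values come from host immune cells, so they do not check the knockdown.

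In micrometastases all 6 genes were lower in the Tim3-KD library, as were 86.4% of all 2669 genes compared, and 5 of the 6 were at least 2-fold lower. Of all genes, 18.1% were at least 2-fold lower and 0.749% at least 2-fold higher, and none of the 6 was higher. The median log2 ratio of Tim3-KD over Ctrl was −1.76 over the 6 genes and −0.43 over all genes, so that the whole matrix was shifted down in the same direction. With 1 library a group, these are differences between libraries, and fewer cells of a type and less RNA per cell cannot be told apart in whole-library values.

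Mmp12, the elastase, had the widest gap of the 6. It was at 5.59 CPM (313 UMIs) in Ctrl micrometastases and at 0.738 CPM (59 UMIs) in Tim3-KD, 7.58-fold lower (ratio 0.132, 0.0981 to 0.175). Tgm2, the protein crosslinker, was 4.49-fold lower, at 18.9 CPM against 85.0 CPM (ratio 0.223, 0.21 to 0.236). Both intervals lie far below an equal level. At each lesion stage 34 values of Mmp12 were at the upper limit of the deposited scale, so that its sums are lower bounds.

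Cd36, the lipid receptor, was at 12.4 CPM in Ctrl against 2.95 CPM in Tim3-KD micrometastases, giving a ratio of 0.238 (0.204 to 0.276). Vegfa was at 24.8 and 9.08 CPM, giving a ratio of 0.366 (0.334 to 0.401), and Trem2 at 44.5 and 18.0 CPM, giving a ratio of 0.405 (0.38 to 0.433). Spp1 was the gene with the smallest gap, at 68.2 and 40.2 CPM, giving a ratio of 0.588 (0.561 to 0.617) that stayed inside 2-fold.

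In macrometastases the genes were closer together. One of the 6 was at least 2-fold lower in Tim3-KD, where 10.6% of all 2643 genes were, and none was at least 2-fold higher, where 2.27% of all genes were. The median log2 ratio was −0.39 over the 6 genes and −0.26 over all genes. Cd36 was the gene past 2-fold, at 27.2 CPM in Ctrl against 9.21 CPM in Tim3-KD, giving a ratio of 0.338 (0.306 to 0.374). Mmp12 was at 7.80 and 4.41 CPM, giving a ratio of 0.565 (0.48 to 0.664).

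Tgm2 stood at 83.0 CPM in Ctrl macrometastases and at 61.2 CPM in Tim3-KD (ratio 0.737, 0.704 to 0.771), and Spp1 at 38.4 and 30.3 CPM (ratio 0.79, 0.739 to 0.844). Trem2, at 17.6 and 19.7 CPM, had a ratio of 1.12 (1.02 to 1.23). Vegfa, at 15.9 and 14.4 CPM, had a ratio of 0.906 (0.819 to 1.0). Set against the trimmed mean over genes, which lay at −0.27 on the log2 scale, the Vegfa log2 ratio was 0.13, so its direction there follows the scaling. The direction for Spp1 was not stable. Its log2 ratio was 0.073 as a mean over cells and 0.11 without the 5% of cells with the most UMIs. Without 10 cells described below, a choice made after seeing the data, its ratio was 0.99. The lower Tgm2 was smaller in size than the gap at the micrometastasis stage.

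In AT the order was different. Tgm2 was at 16.1 CPM in Ctrl against 70.8 CPM in Tim3-KD, giving a ratio of 4.39 (3.87 to 4.98), and Cd36 at 4.60 and 32.0 CPM, giving a ratio of 6.96 (5.61 to 8.65). These 2 of the 5 genes compared were at least 2-fold higher, as were 34% of all 4482 genes, a share that leaves little to be read from them. Spp1 was at 31.4 CPM in Ctrl (962 UMIs) and 3.67 CPM in Tim3-KD (26 UMIs, in 4 cells), and it was the 1 gene at least 2-fold lower, where 9.33% of all genes were. Trem2 was at 10.5 and 18.8 CPM (ratio 1.78, 1.44 to 2.18) and Vegfa had 428 and 66 UMIs (CPM ratio 0.666, 0.506 to 0.865).

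The cells that held these UMIs differed between the AT libraries, and the part of cell types in the whole-library ratios was not tested. Of the Trem2 UMIs, 92% lay in monocyte-like cells in AT Ctrl, and 78.2% in Kupffer-like cells in AT Tim3-KD. Kupffer-like cells held 87.5% of the Tgm2 UMIs of AT Tim3-KD. Within Kupffer-like cells Tgm2 was at 226 CPM in Ctrl (31 cells) and 285 CPM in Tim3-KD (106 cells), giving a ratio of 1.26 (0.997 to 1.61) in place of the 4.39 of the whole library. The class joined 2 clusters of unequal share, and the one led by Vsig4 and Apoc1 held 9 and 56 of these cells. In the other, led by Clec4f and Cd5l (22 and 50 cells), the Tgm2 ratio was 1.44 (1.12 to 1.86). The summed endothelial markers were at 104 CPM in AT Ctrl and 944 CPM in AT Tim3-KD, and endothelial-like cells held 24.2% of the Cd36 UMIs of the latter. Monocyte-like cells held more of them, 27.3%, and within this class Cd36 was at 4.25 CPM in Ctrl (260 cells) and 135 CPM in Tim3-KD (21 cells), a ratio of 31.8 (20.1 to 51.3). Vegfa in the same cells was also higher in Tim3-KD, with 155 and 47 UMIs (CPM ratio 4.51, 3.18 to 6.29), opposite to its whole-library ratio. Of these Ctrl cells 73 were in a cycling monocyte-like cluster that held no AT Tim3-KD cell. Within the other cluster, of 187 and 21 cells, the ratio was 19.5 (11.8 to 33.3) for Cd36 and 3.15 (2.18 to 4.49) for Vegfa.

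**Figure D1:**
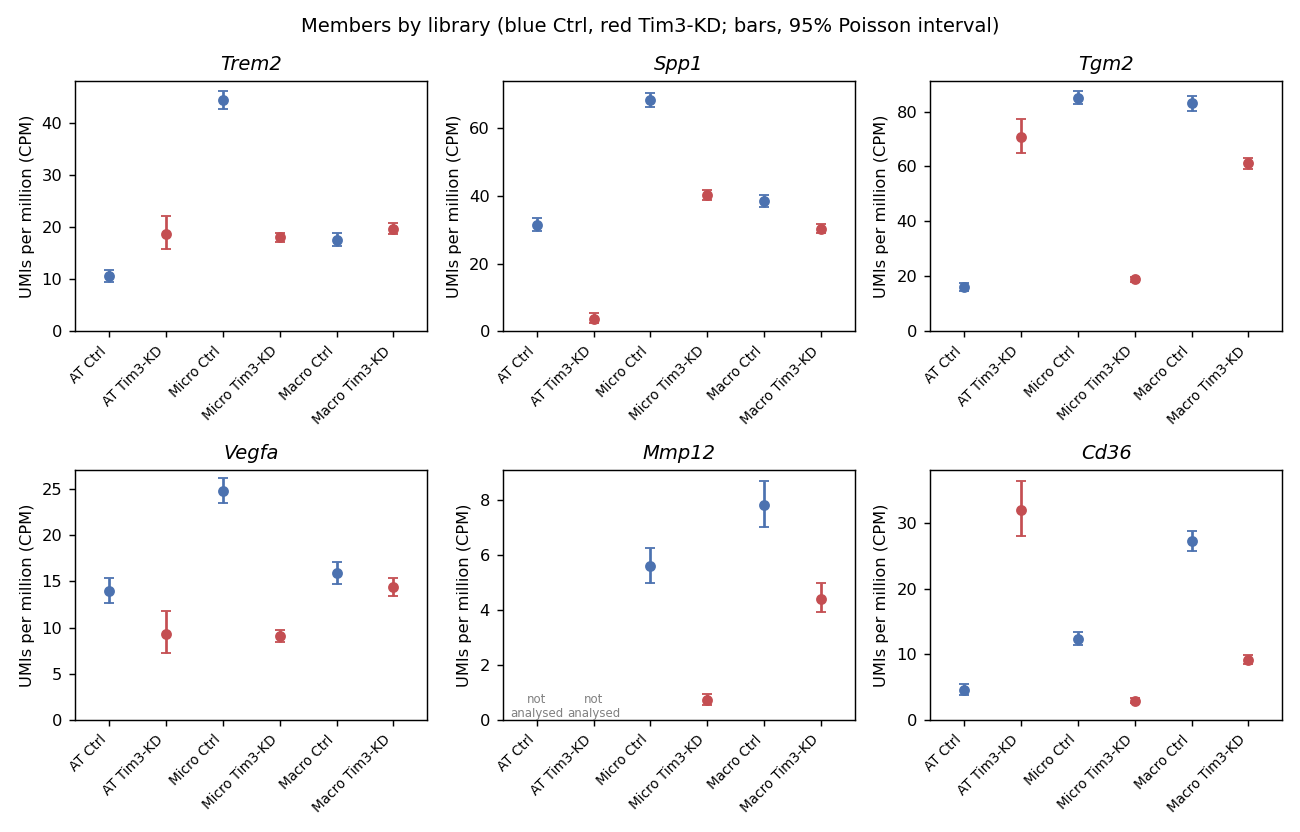
Level of each gene in CPM in the 6 libraries, Ctrl in blue and Tim3-KD in red, with bars for the 95% exact Poisson interval of counting error. In micrometastases all 6 genes are lower in Tim3-KD, from a ratio of 0.132 for Mmp12 to 0.588 for Spp1, whereas in macrometastases only Cd36 is past 2-fold.

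The 6 genes did not share 1 cell type. In Ctrl micrometastases a cluster of macrophages other than Kupffer cells, called macrophage-like below, held 49.8% of the Trem2 UMIs, 59.5% of Spp1, 50.6% of Tgm2, 42.4% of Vegfa, 34.5% of Mmp12 and 36.7% of Cd36, in 7.29% of the cells. Its leading genes by fold were Sdc4, Pf4, Ccl24, C3ar1, Cxcl1, Cxcl16, Ccl9, Lgmn, Ccl2 and Ctsl. Of the macrophage markers 5 were at least 2-fold above the other cells, as were 5 Kupffer markers, though none of the latter was among the leading 10. In Tim3-KD micrometastases this cluster made up 2.45% of the cells (126, against 372 in Ctrl) and held between 8.95% of the Vegfa UMIs and 28.8% of the Cd36 UMIs.

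The rest of each gene lay elsewhere. Monocyte-like cells held 37.9% of Trem2 in Ctrl and 64.3% in Tim3-KD micrometastases. Neutrophil precursor-like cells held 17.4% of Spp1 in Ctrl and 35.0% in Tim3-KD, and of Vegfa 11.9% and 48.3%. Over the class their own levels differed less, with Spp1 at 31.5 and 22.5 CPM and Vegfa at 7.83 and 7.03 CPM, while their cells went from 868 to 2073. The clusters of the class were not alike for Spp1, which went from 56.7 to 20.96 CPM in the largest (469 and 1002 cells), from 29.0 to 32.4 CPM in the next (217 and 624 cells), from 30.5 to 21.4 CPM in another (97 and 113 cells) and from 5.33 to 9.34 CPM in the one of 85 and 334 cells. In macrometastases Kupffer-like cells held most Tgm2 (59.5% in Ctrl, 57.1% in Tim3-KD), while Cd36 was spread over endothelial-like cells (42.1% and 29.4%), Kupffer-like cells (8.36% and 30.8%), conventional dendritic-like cells (28.4% and 23.4%) and also those called monocyte-like (11.4% and 2.07%).

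**Figure D2:**
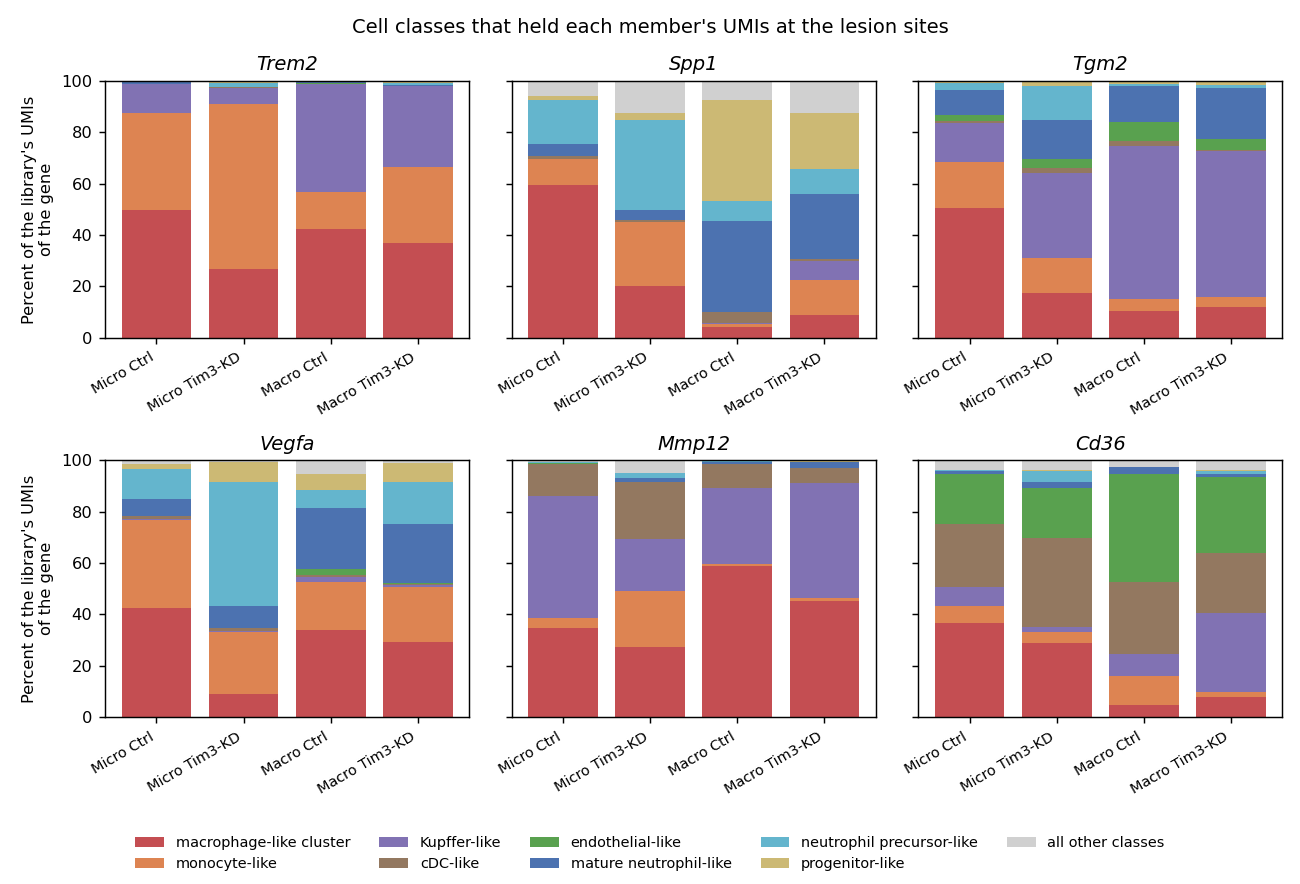
Percent of each gene's UMIs that lay in each cell class in the 4 lesion libraries, as stacked bars. The macrophage-like cluster holds 59.5% of Spp1 in Ctrl micrometastases and 4.08% in Ctrl macrometastases, while Kupffer-like cells hold 59.5% of Tgm2 in the latter.

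Without the macrophage-like cluster, the whole-library ratios in micrometastases were 0.555 (0.511 to 0.603) for Trem2, 0.351 for Tgm2, 0.544 for Vegfa, 0.138 for Mmp12 and 0.251 for Cd36, so that 3 genes and not 5 remained at least 2-fold lower. For Spp1 the ratio turned to 1.09 (1.02 to 1.16), of whose Tim3-KD UMIs 172 lay in 1 T-like cell. Leaving out this cluster was chosen after seeing the data, and the share of all genes past 2-fold was not computed without it. Spp1 was lower in some of the remaining cells, with a ratio of 0.715 (0.649 to 0.788) in neutrophil precursor-like cells, and higher in others, with 1.49 (1.32 to 1.68) in monocyte-like cells.

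Within the macrophage-like cluster of micrometastases, the level of the signature genes Trem2 and Spp1 was close in both libraries. This rested on the clustering. Most of these cells fell into a cluster of 626 cells with the 6 genes included, and into a monocyte-like cluster of 2203 cells at a coarser resolution. In those clusters the Trem2 log2 ratio was −0.51 and −0.49, that of Spp1 −1.36 and −1.09, and 4 of the 6 genes in place of 2 were at least 2-fold lower. The share of all genes past 2-fold was not computed for those clusters, so that count has nothing to be read against. Trem2 was at 305 CPM in Ctrl against 354 CPM in Tim3-KD (ratio 1.16, 1.03 to 1.3), Spp1 at 560 and 594 CPM (ratio 1.06, 0.971 to 1.16) and Cd36 at 62.8 and 62.1 CPM (ratio 0.989, 0.745 to 1.3). Tgm2 and Vegfa differed. Tgm2 was at 593 CPM in Ctrl against 239 CPM in Tim3-KD (ratio 0.403, 0.354 to 0.458), and Vegfa at 145 and 59.4 CPM (ratio 0.41, 0.312 to 0.53). Mmp12 was at 26.6 and 14.6 CPM (ratio 0.549, 0.303 to 0.933). So 2 of the 6 genes were at least 2-fold lower in these cells, where 6.64% of all 2184 genes were, none was at least 2-fold higher, where 17% were, and the median log2 ratio was −0.42 over the 6 and 0.22 over all genes.

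Shares of cells pointed the same way. After each cell was thinned to 1500 UMIs, a Tgm2 UMI was found in 45.2% of the macrophage-like cells of Ctrl micrometastases (40.03% to 50.4%) and in 23.8% of those of Tim3-KD (16.7% to 32.2%), and a Vegfa UMI in 20.4% (16.4% to 24.9%) and 7.94% (3.87% to 14.1%). For Trem2 the shares were 33.9% and 41.3%, and for Spp1 19.4% and 17.5%, with intervals that overlap. Without thinning, the shares were 82.8% and 59.5% for Tgm2, 60.2% and 31.0% for Vegfa, 72.8% and 69.0% for Trem2 and 35.2% and 34.1% for Spp1, at median depths of 10398 and 7842 UMIs. B-like cells, which should lack Trem2, had a Trem2 UMI in 0.16% and 0% of thinned cells. Spp1 was not confined to myeloid cells. In Ctrl and Tim3-KD micrometastases it was at 29.7 and 140 CPM in T-like cells. In the class of natural killer (NK) or ILC1-like cells it was at 113 and 319 CPM there, and at 55.3 and 217 CPM in macrometastases.

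The macrophage-like cluster was not the same mix of cells in both libraries. At a finer resolution it fell mainly into a cluster led by Sdc4, Ccl24 and genes of MHC class II, which took 358 of the 372 Ctrl cells and 31 of the 126 Tim3-KD cells, and a cluster led by Pf4, Cxcl1, Alb and Ctsl, which took 10 and 94. By the marker rule the former was named conventional dendritic-like, as was its counterpart when the 6 genes were included. The latter was left unnamed in both runs, with the hepatocyte genes Alb and Fgb among its leading 10, and was named macrophage-like at the coarser resolution, where most of the other cells joined a monocyte-like cluster. For most of the Ctrl cells the name macrophage-like thus holds at 1 resolution only. Over the whole libraries the macrophage markers summed to 1009 CPM in Ctrl against 972 CPM in Tim3-KD and the conventional dendritic markers to 1845 CPM against 409 CPM, and the part of dendritic cells and of hepatocyte RNA in the values of this cluster was not tested. In the former, which held 368 and 34 cells in all, the ratios were 0.554 (0.449 to 0.677) for Tgm2, 0.434 (0.259 to 0.684) for Vegfa and 0.161 (0.033 to 0.476) for Cd36. There Trem2 had a ratio of 1.35 (1.11 to 1.63), Spp1 0.775 (0.641 to 0.929) and Mmp12 1.47 (0.71 to 2.74). In the latter, with 10 Ctrl cells, Spp1 was at 2169 CPM in Ctrl against 672 CPM in Tim3-KD, and Tgm2 at 941 and 196 CPM. Mmp12 was also lower in Tim3-KD there, at 157 and 6.21 CPM from 12 and 5 UMIs (ratio 0.0396, 0.0109 to 0.121). Its ratio in the former was above 1, with an interval that includes equal levels. Tgm2 was thus lower in Tim3-KD in both finer clusters, and so was Spp1, whose level in the joint cluster was near equal. Cd36 in the latter had a ratio of 0.618 (0.315 to 1.35).

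**Figure D3:**
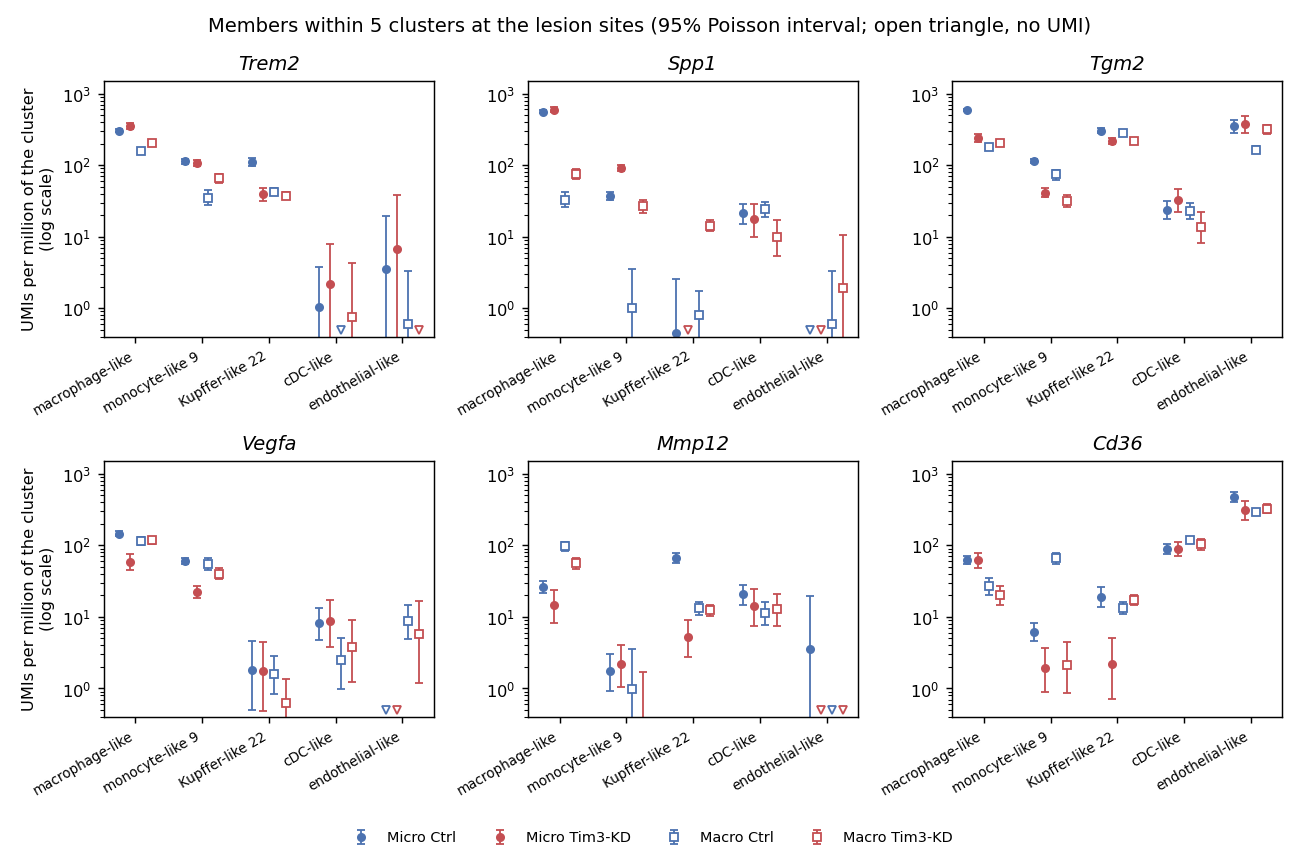
Level of each gene within 5 cell clusters or classes on a log axis of CPM, Ctrl in blue and Tim3-KD in red, with filled circles for micrometastases, open squares for macrometastases and open triangles where no UMI was found. Tgm2 in macrophage-like cells stands at 593 CPM in Ctrl against 239 CPM in Tim3-KD micrometastases, and Spp1 at 560 CPM in Ctrl micrometastases and 33.1 CPM in Ctrl macrometastases.

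In the macrophage-like cluster of macrometastases (154 and 176 cells), none of the 6 genes was at least 2-fold lower in Tim3-KD and 1, Spp1, was at least 2-fold higher, where 6.37% and 5.9% of all 1899 genes were. In the 3 other clusterings the cluster that took most of these cells over all libraries had 1 or 2 genes lower. The share of all genes was not computed for those clusters. Trem2 was at 158 and 202 CPM (ratio 1.28, 1.11 to 1.48), Tgm2 at 181 and 204 CPM (ratio 1.13, 0.979 to 1.29), and Vegfa at 114 and 117 CPM (ratio 1.02, 0.856 to 1.23). Spp1 was higher in Tim3-KD, at 75.0 CPM against 33.1 CPM (ratio 2.27, 1.7 to 3.05), and the finer clusters differed. In the one led by Pf4, which held most of these cells (127 and 130 cells), its ratio was 3.18 (2.23 to 4.6), and in the one led by Sdc4 and Ccl24 (30 and 46 cells) it was 0.849 (0.504 to 1.46). Much of this Spp1 lay in few cells. Those with at least 10 Spp1 UMIs in the joint cluster were 2 in Ctrl, with 40 of 68 UMIs, and 4 in Tim3-KD, with 99 of 169 UMIs. Mmp12 was at 97.3 and 55.9 CPM (ratio 0.575, 0.456 to 0.722) and Cd36 at 26.8 and 20.0 CPM (ratio 0.746, 0.492 to 1.13). That Cd36 value joins a ratio of 1.45 (0.888 to 2.38) in the finer cluster led by Pf4 and one of 0.0621 (0.012 to 0.204) in the other. In the same order the ratios were 0.69 (0.541 to 0.877) and 0.214 (0.0996 to 0.433) for Mmp12. For Vegfa they were 0.99 (0.814 to 1.2) and 1.86 (1.07 to 3.39). The lower Tgm2 and Vegfa of the micrometastasis stage were therefore not seen in this cluster at day 12, though the change between stages was not tested.

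Monocyte-like cells of micrometastases also had lower Tgm2, Vegfa and Cd36, which were the 3 of 6 genes at least 2-fold lower there, where 14.2% of all 2430 genes were. In the largest monocyte-like cluster, led by Ms4a4c and Ccr2, Tgm2 was at 114 CPM in Ctrl against 41.4 CPM in Tim3-KD (ratio 0.363, 0.308 to 0.425) and Vegfa at 61.0 and 22.5 CPM (ratio 0.368, 0.294 to 0.457). Trem2 was close in both, at 113 and 107 CPM (ratio 0.946, 0.844 to 1.06). Spp1 went the other way, at 37.1 CPM in Ctrl against 92.2 CPM in Tim3-KD (ratio 2.48, 2.13 to 2.9). Much of it lay in few cells. Over all monocyte-like cells, those with at least 10 Spp1 UMIs were 9 in Ctrl, with 124 of 385 UMIs, and 14 in Tim3-KD, with 356 of 802 UMIs.

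The same monocyte-like cluster in macrometastases had Spp1 at 0.994 CPM in Ctrl (2 UMIs) and 26.7 CPM in Tim3-KD (87 UMIs), giving a ratio of 26.8 whose interval runs from 7.21 to 225. Trem2 was at 35.3 and 65.6 CPM (ratio 1.86, 1.41 to 2.47). Cd36 went from 134 UMIs in Ctrl to 7 in Tim3-KD, at 66.6 and 2.15 CPM (ratio 0.0322, 0.0127 to 0.0682). Tgm2 was also more than 2-fold lower, at 31.9 CPM against 74.1 CPM (ratio 0.43, 0.332 to 0.557), and Vegfa had a ratio of 0.733 (0.565 to 0.953). Trem2 and Spp1 were higher and Cd36, Tgm2 and Vegfa lower in these Tim3-KD cells. A second monocyte-like cluster, led by Ass1 and Ly6c1 with the cycling genes Pclaf and Top2a, held 60 Ctrl and 290 Tim3-KD cells in micrometastases. Its Spp1 was at 64.4 and 41.8 CPM (ratio 0.649, 0.522 to 0.812), so that the higher Spp1 was not shared by all monocyte-like cells.

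Mmp12 was the gene with the widest gap in Kupffer-like cells. In the larger Kupffer-like cluster of micrometastases (215 Ctrl and 252 Tim3-KD cells) Mmp12 was at 67.6 CPM (148 UMIs) in Ctrl and 5.25 CPM (12 UMIs) in Tim3-KD, giving a ratio of 0.0777 (0.0393 to 0.14). Trem2 was at 110 and 39.4 CPM (ratio 0.358, 0.278 to 0.458) and Cd36 at 19.2 and 2.19 CPM (ratio 0.114, 0.0352 to 0.288). Tgm2 was at 305 and 218 CPM (ratio 0.716, 0.636 to 0.805). Over all Kupffer-like cells, 3 of the 4 genes with enough UMIs were at least 2-fold lower, where 2.37% of all 2150 genes were.

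In Kupffer-like cells of macrometastases those gaps were smaller, a change between stages that was not tested. In the same cluster of macrometastases (739 and 755 cells) Trem2 was at 42.4 and 37.5 CPM (ratio 0.885, 0.759 to 1.03), Mmp12 at 13.2 and 12.5 CPM (ratio 0.946, 0.718 to 1.25) and Cd36 at 13.3 and 17.4 CPM (ratio 1.31, 1.01 to 1.69). Tgm2, at 282 and 215 CPM, kept a ratio of 0.763 (0.718 to 0.811). Kupffer-like cells had therefore a lower Tgm2 in Tim3-KD at both stages, by less than 2-fold.

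Cd36 was highest in endothelial-like cells, at 477 CPM in Ctrl against 312 CPM in Tim3-KD micrometastases (ratio 0.654, 0.458 to 0.92) and at 296 and 328 CPM in macrometastases. Those cells went from 346 (7.04% of cells) in Ctrl to 133 (2.42%) in Tim3-KD macrometastases, and the summed level of the 16 endothelial markers went from 1157 to 397 CPM, none of them at 0. Endothelial cells carry no CD45, and their part in the lower whole-library Cd36 was not tested. Conventional dendritic-like cells held Cd36 at 89.0 and 89.3 CPM in micrometastases and at 119 and 104 CPM in macrometastases. In mature neutrophil-like cells Tgm2 was at 65.1 CPM in Ctrl against 37.8 CPM in Tim3-KD micrometastases, and at 41.1 and 53.3 CPM in macrometastases. The clusters of this class differed in level and in share. In micrometastases Tgm2 was at 29.2 and 24.2 CPM in one (623 and 720 cells) and at 105 and 72.5 CPM in another (522 and 297 cells), closer than over the class.

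Trem2 was found more often in the macrophage-like cells of Ctrl micrometastases that also had Spp1. In Ctrl micrometastases, with cells thinned to 1500 UMIs, a Trem2 UMI was found in 52.8% (40.7% to 64.7%) of the 72 cells with an Spp1 UMI and in 29.3% (24.2% to 34.8%) of the 300 cells without. Without thinning it was 84.0% of 131 cells and 66.8% of 241 cells, whose median depths were 11311 and 10099 UMIs. In Tim3-KD the thinned shares were 54.5% (32.2% to 75.6%) of 22 cells and 38.5% (29.1% to 48.5%) of 104 cells, with intervals that overlap. For Tgm2 the shares in Ctrl were 41.7% of cells with Spp1 and 46.0% of those without, so Tgm2 did not follow Spp1 from cell to cell.

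Spp1 was concentrated in few cells. In Ctrl micrometastases 85 cells had at least 10 Spp1 UMIs, and 51 of them, with 2042 UMIs, were in the macrophage-like cluster. In Tim3-KD micrometastases it was 64 cells, of which 17 with 580 UMIs were macrophage-like. Trem2 had at least 3 UMIs in 355 Ctrl cells (177 macrophage-like, 134 monocyte-like and 43 Kupffer-like) and in 190 Tim3-KD cells (57, 124 and 7). At that same limit Spp1 was in 231 Ctrl and 255 Tim3-KD cells, so Trem2 was the more widespread in Ctrl only. Part of the Spp1 lay in single cells of other classes, such as 172 of the 274 Spp1 UMIs of T-like cells in Tim3-KD micrometastases, which came from 1 cell.

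In macrometastases a handful of cells held much of the Spp1. The 7 cells with at least 80 Spp1 UMIs (3 Ctrl and 4 Tim3-KD, from 83 to 258 UMIs, the highest a lower bound) had 56 to 95 UMIs of Cald1, Sparc and Wfdc2, which stood with Areg on a list of 4T07 tumour or epithelial markers. They had no Areg UMI, no Trem2 UMI and 49194 to 90059 UMIs in all. The median of the other 10408 cells was 6747 UMIs in all and 0 UMIs of that list, and the next highest Spp1 value was 41. All but 1 of the 7 had been put in the haematopoietic progenitor-like class, and that 1 in the Kupffer-like class, where it gave 133 of the 139 Spp1 UMIs of the larger Tim3-KD cluster.

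All 7 had been sorted as CD45+, and whether they were tumour cells or droplets with more than 1 cell was not tested. The 10 cells with at least 50 UMIs of the listed genes (3 Ctrl, 7 Tim3-KD) held 38.9% of the Spp1 UMIs of Ctrl macrometastases and 23.4% of those of Tim3-KD. In 2 of the Tim3-KD cells, 1 of them endothelial-like, most of the listed UMIs were of Sparc, which endothelial and stromal cells also express, and Spp1 was at 0. Without the 10 cells Spp1 was at 23.6 CPM in Ctrl against 23.3 CPM in Tim3-KD, giving a ratio of 0.99 (0.913 to 1.07) in place of 0.79. Leaving out these cells was chosen after seeing the data, and the 7 cells highest in Spp1 were among them. The near-equal level without them is therefore a description and not a test. Only 1 of the 12 listed genes, Sparc, was in the AT and micrometastasis matrices, so such cells could not be looked for in the same way there.

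**Figure D4:**
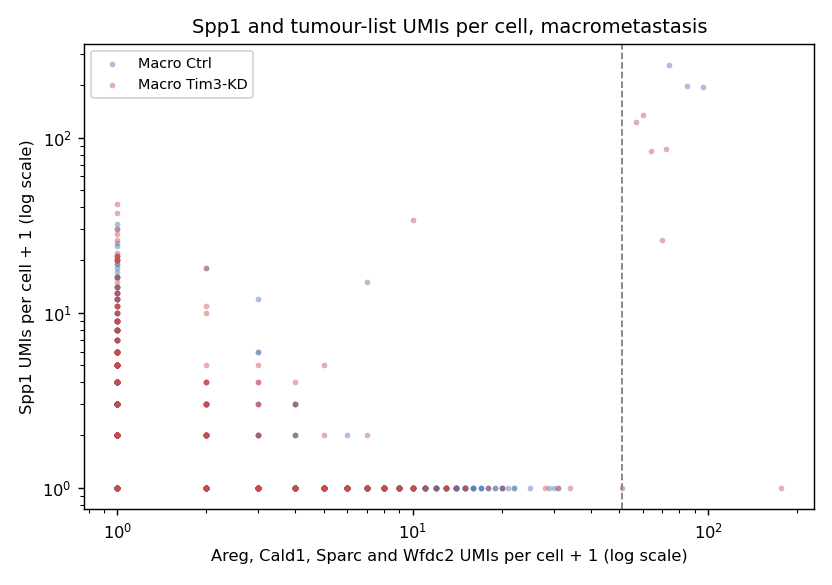
Each point is a cell of the macrometastasis libraries, Ctrl in blue and Tim3-KD in red, with its summed UMIs of Areg, Cald1, Sparc and Wfdc2 plus 1 against its Spp1 UMIs plus 1, both on log axes, and a dashed line at 50 tumour-list UMIs. The 7 cells with at least 80 Spp1 UMIs all lie beyond the line, and the next highest cell has 41.

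Between Ctrl stages, which share their libraries with the comparisons above, 4 of the 5 genes compared were at least 2-fold higher in micrometastases than in AT at day 3, where 12.6% of all 2282 genes were. Levels across stages come from UMIs rebuilt from matrices that had been scaled apart. Tgm2 was 5.27-fold higher (4.8 to 5.79), Trem2 4.21-fold (3.75 to 4.75), Cd36 2.7-fold (2.25 to 3.26), Spp1 2.17-fold (2.02 to 2.33) and Vegfa 1.77-fold (1.59 to 1.98). Macrophage-like cells numbered 6 of 1803 in AT and 372 of 5106 in micrometastases. Within monocyte-like cells Tgm2 was 6.98-fold higher (5.62 to 8.75) and Trem2 2.38-fold (2.08 to 2.72), while Spp1 had a ratio of 1.04 (0.89 to 1.22). The class held 2 main clusters whose shares differ, and the cycling monocyte-like cluster gave 73 of 260 cells in AT and 60 of 746 in micrometastases. Within the largest monocyte-like cluster Spp1 went from 22.4 CPM (71 UMIs) to 37.1 CPM (275 UMIs), with intervals that do not overlap, and within the cycling cluster from 56.3 to 64.4 CPM, with intervals that do. Tgm2 went from 25.5 to 114 CPM in the largest and from 3.01 to 6.44 CPM in the cycling cluster, both smaller steps than that of the class, and Trem2 from 49.2 to 113 CPM and from 38.5 to 62.0 CPM.

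From Ctrl micrometastases to Ctrl macrometastases 1 gene was at least 2-fold lower and 1 at least 2-fold higher, where 3.92% and 21.9% of all 1786 genes were. Trem2 was the lower gene, with a ratio of 0.395 (0.364 to 0.429), and Cd36 the higher, with 2.19 (2.0 to 2.41). Spp1 had a ratio of 0.562 (0.53 to 0.595), Vegfa 0.64 (0.584 to 0.702), Tgm2 0.977 (0.935 to 1.02) and Mmp12 1.39 (1.19 to 1.63). Without the 3 Ctrl cells with at least 50 UMIs of the tumour list, Spp1 in macrometastases was at 23.6 CPM, against 68.2 CPM in micrometastases, and so would be the 2nd gene more than 2-fold lower. That count leaves out cells at 1 stage only. Such cells could not be looked for in the same way in Ctrl micrometastases, where 8 cells had at least 80 Spp1 UMIs. Stage and day differ together here and cannot be told apart.

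Within the macrophage-like cluster the ratio between stages lay furthest from 1 for Spp1. Spp1 was 16.9-fold lower at day 12 (ratio 0.0591, 0.0457 to 0.0753), Tgm2 had a ratio of 0.305, Cd36 0.426, Trem2 0.519 and Vegfa 0.789. Mmp12 was 3.66-fold higher (2.88 to 4.67). In Kupffer-like cells Mmp12 moved the other way, with a ratio of 0.219 (0.168 to 0.284). The finer cluster led by Sdc4 and Ccl24 took 358 of 372 macrophage-like cells at day 3 and 27 of 154 at day 12, so these cells were a different mix at each stage. Within that finer cluster (368 and 30 Ctrl cells) Spp1 went from 519 to 88.6 CPM, a smaller gap than in the joint cluster, and Tgm2 from 589 to 230 CPM. Vegfa went from 143 to 60.2 CPM there, a wider gap, and Cd36 from 60.8 to 88.6 CPM, in the other direction. Mmp12 went from 24.5 to 103 CPM there. In the finer cluster led by Pf4 (10 and 127 Ctrl cells) Spp1 went from 2169 to 23.7 CPM, a wider gap than in the joint cluster. Mmp12 went from 157 (12 UMIs) to 98.2 CPM in it, opposite to the joint cluster, and Cd36 from 131 to 17.1 CPM.

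Genes of the same pathways were counted from lists that leave out the 6, and are to be read against the 18.1% of all genes at least 2-fold lower in Tim3-KD micrometastases. In micrometastases the lipid uptake, storage and export genes had 4 of 14 at least 2-fold lower in Tim3-KD and 13 of 14 below 1, near the 86.4% of all genes, with Lpl (lipoprotein lipase) at 30.3 and 10.9 CPM and Msr1, a scavenger receptor, at 67.4 and 28.8 CPM. Of the lipid-associated macrophage programme 4 of 8 were at least 2-fold lower, among them Clec7a (the receptor dectin-1), at 283 and 99.2 CPM, and Itgax (CD11c), at 10.6 and 2.41 CPM. The median log2 ratios were −0.72 and −0.87, against −0.43 over all genes. No gene of either list was at least 2-fold higher. Beside these counts, the summed conventional dendritic markers went from 1845 to 409 CPM, the Kupffer markers from 2195 to 1387 CPM and the macrophage markers from 1009 to 972 CPM, and the part of these cell types in the lists was not tested.

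Of the hypoxia and angiogenesis genes 3 of 10 were at least 2-fold lower in Tim3-KD micrometastases (median −0.85), with the VEGF receptors Kdr and Flt1 at ratios of 0.24 and 0.338, beside an endothelial marker level of 279 CPM in Ctrl against 116 CPM in Tim3-KD. Matrix and repair genes had 2 of 16 lower (median −0.36), a share below that of all genes, namely Retnla and Mmp14. The osteopontin receptors had 2 of 6 lower (median −0.87), the integrin genes Itgb5 and Itga9. Of the TREM2 partners and ligands none was in the lesion matrices, and the 1 in AT, Apoe, was at 279 CPM in Ctrl against 5709 CPM in Tim3-KD.

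Within macrophage-like cells of micrometastases these lists were split, where 6.64% of all genes were at least 2-fold lower and 17% at least 2-fold higher. Lipid genes had 2 lower and 2 higher of 14, the higher being the exporter Abca1 (ratio 3.56) and the lipid droplet gene Plin2 (398 and 907 CPM). Programme genes had 2 lower (Itgax and Clec7a) and 1 higher of 8, the protease gene Ctsl, at 405 and 2817 CPM. Matrix and repair genes had 6 of 15 higher and none lower, with Ecm1 at 48.3 and 502 CPM. Hypoxia genes had 4 lower and 3 higher of 10, and osteopontin receptors 0 of 5 either way. These genes also separate the finer clusters, whose shares differ between the libraries, and the part of that mix was not tested.

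In macrometastases, where 10.6% of all genes were at least 2-fold lower and 2.27% at least 2-fold higher, the lists had medians between −0.41 and 0.05. Lipid genes had 1 of 12 lower (median −0.11), programme genes 1 of 9 (median 0.05), matrix genes 1 lower and 1 higher of 14 (median −0.13) and osteopontin receptors 0 of 5 (median −0.34). Hypoxia and angiogenesis genes had 4 of 11 lower (median −0.41), with Kdr at 110 CPM in Ctrl against 22.3 CPM in Tim3-KD, beside the endothelial markers at 1157 and 397 CPM. Within macrophage-like cells there, 6.37% of all genes were at least 2-fold lower and 5.9% at least 2-fold higher. Matrix genes had 2 lower and 2 higher of 13, with Fn1 (fibronectin) at a ratio of 5.95 and Mmp9 at 0.238. Lipid genes had 2 lower and 0 higher of 12, with Lpl at a ratio of 0.345. Hypoxia genes had 1 lower and 1 higher of 11, and programme genes 0 of 9 either way. In AT, where 34% of all genes were at least 2-fold higher and 9.33% at least 2-fold lower, lipid genes had 9 higher and 2 lower of 13, programme genes 4 and 4 of 10, hypoxia genes 5 and 2 of 10, matrix genes 5 and 6 of 11, and osteopontin receptors 5 and 0 of 6.

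The genes most like each member across units of cell class and library (54 units of at least 50 cells, 45 for Mmp12) were found by Pearson correlation of log2(CPM + 1). The units share libraries and classes, so r is a description. Trem2 was nearest to Fcgr1 (0.953), Ms4a8a (0.938) and Colec12 (0.926), and Tgm2 to Il1a (0.932), Cxcl1 (0.918) and Rin2 (0.917). Mmp12 was nearest to Cd207 (0.897), Clec4b1 (0.850) and Aif1 (0.836), and Cd36 to Clic4 (0.894), Dnase1l3 (0.876) and Lifr (0.830). The likeness was weaker for Vegfa, with Thbs1 (0.742), F13a1 (0.741) and Osm (0.727), and for Spp1, with Ccnf (0.718), Vegfa (0.642) and Cd244a (0.580). Trem2 had an r of 0.674 with Tgm2 and 0.136 with Spp1, so that over these units Trem2 and Spp1 were the more unlike pair. Single cells set the Spp1 of some units. In progenitor-like cells of Ctrl macrometastases 3 cells held 648 of 659 Spp1 UMIs, and r was not computed without such cells.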

How the data were processed

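Single-cell 3′ RNA libraries of CD45+ liver cells were analysed for 6 genes in 6 libraries. The authors trimmed reads with Trim Galore 0.4.3, aligned them to GRCm38 with STAR 2.7.7a, counted exonic and intronic UMIs, kept cells with over 1000 and under 500000 UMIs, over 1000 genes and under 20% mitochondrial reads, and removed doublets with scrublet. The deposited values are scores per site, scaled and capped at 10 by the authors after regression on total UMIs. No count test was run, since each group had 1 library. The scores were inverted to UMIs (99.9281% to 99.9999% of them whole to within 0.05). Those at the cap, 0.144% to 0.160% of detected values, are lower bounds (at most 34 cells for any gene here and site). For 3 AT genes the inversion failed.

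Cells were clustered with scanpy 1.11.5 on 1637 of the 1642 shared genes, leaving the 6 out (30 components, 15 neighbours, Leiden resolution 1). Sums have exact Poisson intervals, shares Clopper-Pearson intervals and ratios exact conditional intervals (scipy 1.17.1). Ratios of all genes used at least 20 UMIs over both libraries, with 0.5 UMI added to each sum, and a 2-fold rule. The 6 genes were named throughout, with up to 4 genes per list of the largest ratio among those of at least 100 UMIs, and for each member the 3 most correlated genes. The inversion and the ratios were tested on simulated data. Genes and lists were chosen with earlier results of these data known. Alternatives were other scalings, cell filters, thinning depths and clusterings. UMIs are not length-scaled, so levels are not compared between genes.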

Additional observations from a re-analysis of the deposited data

Results flagged for a closer look

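The ratio of Tim3-KD over Ctrl in whole libraries pointed in opposite directions at different sites for 3 genes. With 1 library a group none of these differences was tested. For Trem2 the log2 ratio was 0.83 in AT and −1.30 in micrometastases, a difference of 2.13, and it was 0.16 in macrometastases, so that micrometastases less macrometastases gave −1.47. For Tgm2 it was 2.13 in AT, −2.17 in micrometastases and −0.44 in macrometastases, and AT exceeded the lesions by 4.30 and 2.58. For Cd36 it was 2.80 in AT, −2.07 in micrometastases and −1.56 in macrometastases, and AT exceeded the lesions by 4.87 and 4.36. Kupffer-like cells were 1.72% of AT Ctrl and 19.6% of AT Tim3-KD cells, and their part in these differences was not tested.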

How the results depend on the processing

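Depth limits the rarer genes: Mmp12 rests on 59 UMIs in Tim3-KD micrometastases and Spp1 on 26 in AT Tim3-KD. No paired analysis over the 3 sites was run, and within a site each group had 1 library. Of 118 recomputed summary values 95 stayed within their limits (1.5 times for a count, the counting interval otherwise) and 23 moved; of 218 values of single genes 122 stayed, 88 moved and 8 changed direction. Log2 ratios and counts are of Tim3-KD over Ctrl. Relative to the trimmed mean over genes, the median over the genes was 0.24 in AT (2 genes at least 2-fold lower, not 1), −1.32 in micrometastases and −0.12 in macrometastases. As a mean over cells it was −1.33 and −0.061 in the lesions, with Spp1 at 0.073 in macrometastases, and from Ctrl micrometastases to macrometastases −0.63 with 3 genes lower. Without the 5% of cells with the most UMIs it was −1.93 and −0.15, with Spp1 at 0.11 in macrometastases. Without the macrophage-like cluster, a choice made after seeing the data, it was −1.19 in micrometastases, with 3 genes lower and Spp1 at 0.12. Within the macrophage-like cells of micrometastases, clustering with the 6 genes gave a median of −1.30, 4 genes lower, Trem2 at −0.51 and Mmp12 at 0.23; resolution 0.5 gave −1.39, 4 lower and Trem2 at −0.49; resolution 2 gave Mmp12 at 0.61, and its other finer cluster, also chosen after seeing the data, a median of −1.38. In macrometastases clustering with the genes gave 1 lower, 2 higher and a median of 0.70, resolution 0.5 gave 2 lower, and resolution 2 gave 2 lower, 0 higher and Spp1 at −0.25 in the finer cluster that held the fewer of these cells, against 1.66 in the other. The cause of these moves was not tested, and the share of all genes past 2-fold was not recomputed for these counts. Thinning to 3000 UMIs or not at all, leaving out shared barcodes, keeping cells of at least 3000 UMIs and dropping the UMI minimum moved no summary value beyond its limits.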
